A study of Rattus norvegicus with 8 samples.

Results

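The genes described here are 42 genes of mitosis, the step in which a cell separates its copied chromosomes into daughter cells. A gene was taken as measured where the array platform assigned a probe set to that gene symbol alone, and the probe set with the highest mean over the arrays then stood for the gene. By this rule 37 of the 42 genes were measured, out of 14217 genes measured in all. Tpx2, Ndc80 and Kif4a had no probe set of their own symbol, and the probe sets of Anln and Ckap2 also named another gene, so these 5 are not reported.

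The samples were 8 livers of male Wistar rats, all made cirrhotic by inhalation of the liver toxin CCl4 (carbon tetrachloride). Their drinking water held 0.3 g/L of phenobarbital, which raises drug-metabolizing enzymes of the liver. By the labels, 4 rats received vehicle and 4 an antiangiogenic treatment, which means one against vessel growth. The controls are called non-treated in the text of the series. The agent, its dose and duration and the age of the rats were not given in the sources used here. Each liver was read on 1 Affymetrix Rat2302 array, and all values are log2 intensities, so that a difference of −1 is a halving of the signal. The comparison asks how mitotic transcripts in cirrhotic liver differ with the treatment. Whole liver was measured, so fewer dividing cells and less RNA per dividing cell cannot be told apart.

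Cells enter mitosis when cyclin B activates the kinase Cdk1, and leave it when the anaphase-promoting complex, a ubiquitin ligase, marks cyclin B and the separase inhibitor securin for destruction. Between these events kinetochores attach chromosomes to the spindle, the spindle checkpoint delays anaphase until all are attached, and a contractile ring divides the cell. Most of the genes involved are transcribed only late in the cell cycle, so that resting liver holds little of their RNA, while hepatocytes, bile duct cells, stellate cells and leukocytes can all divide in injured liver.

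Vehicle 4 and treated 3 carried nearly the same profile under opposite labels. Across all probe sets they correlated at r = 0.996, while the 27 other pairs of arrays ranged from 0.956 to 0.988. Of 9235 bright probe sets, 0 were over 2-fold apart on this pair and 245 to 1627 on the others. Results are therefore given with and without both. Bacterial spike-in controls, added at hybridization, also divided the arrays into 3 spike-in groups: vehicle 1 with treated 1, vehicle 4 with treated 3, and the other 4 arrays. The 3′ to 5′ signal ratio of Gapdh, which rises as RNA degrades, was 0.186 to 0.414 (log2) in vehicle and 0.133 to 0.404 in treated livers. That of beta-actin was 1.70 to 1.91 and 1.77 to 1.88. The hepatocyte transcripts Alb and Serpina1, which define the labelled tissue, were bright in both groups, with vehicle and treated means of 14.84 and 14.82 for Alb and 14.16 and 14.13 for Serpina1. Other hepatocyte markers differed more, from −0.64 to 2.55 over the 17 measured.

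Mitotic transcripts averaged lower in treated livers at all 37 measured genes, but none passed the test. The median difference was −0.995 (log2, treated minus vehicle), from −1.84 for Ect2 to −0.25 for Cks2, which amounts to between 3.58-fold and 1.19-fold. Over all 14217 genes 48.4% were lower in treated livers, and the median difference was 0.01. A difference of at least 2-fold downward was seen at 18 of the 37, against 1.32% of all genes, and upward at 0, against 0.359%. Limma with Benjamini-Hochberg adjustment over 31042 probe sets called 0 of the 37 (background 0.0%; smallest adjusted p = 0.979), and 0 had an unadjusted p under 0.05. Of all genes 2.8% had such a p in this direction and 1.95% in the other, and of all probe sets 3.93% in either. Unadjusted p-values ran from 0.0633 for Ccnb2 to 0.462 for Cks2. The groups overlapped at all 37 genes, while 0.626% of all genes were lower without overlap. Without the nearly identical arrays all 37 averaged lower (background 48.0%), with a median of −1.37. Of these, 4 had an unadjusted p under 0.05 (background 5.24%) and 0 passed the adjusted threshold (background 0.0211%; smallest adjusted p = 0.746 by limma).

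**Figure D1:**
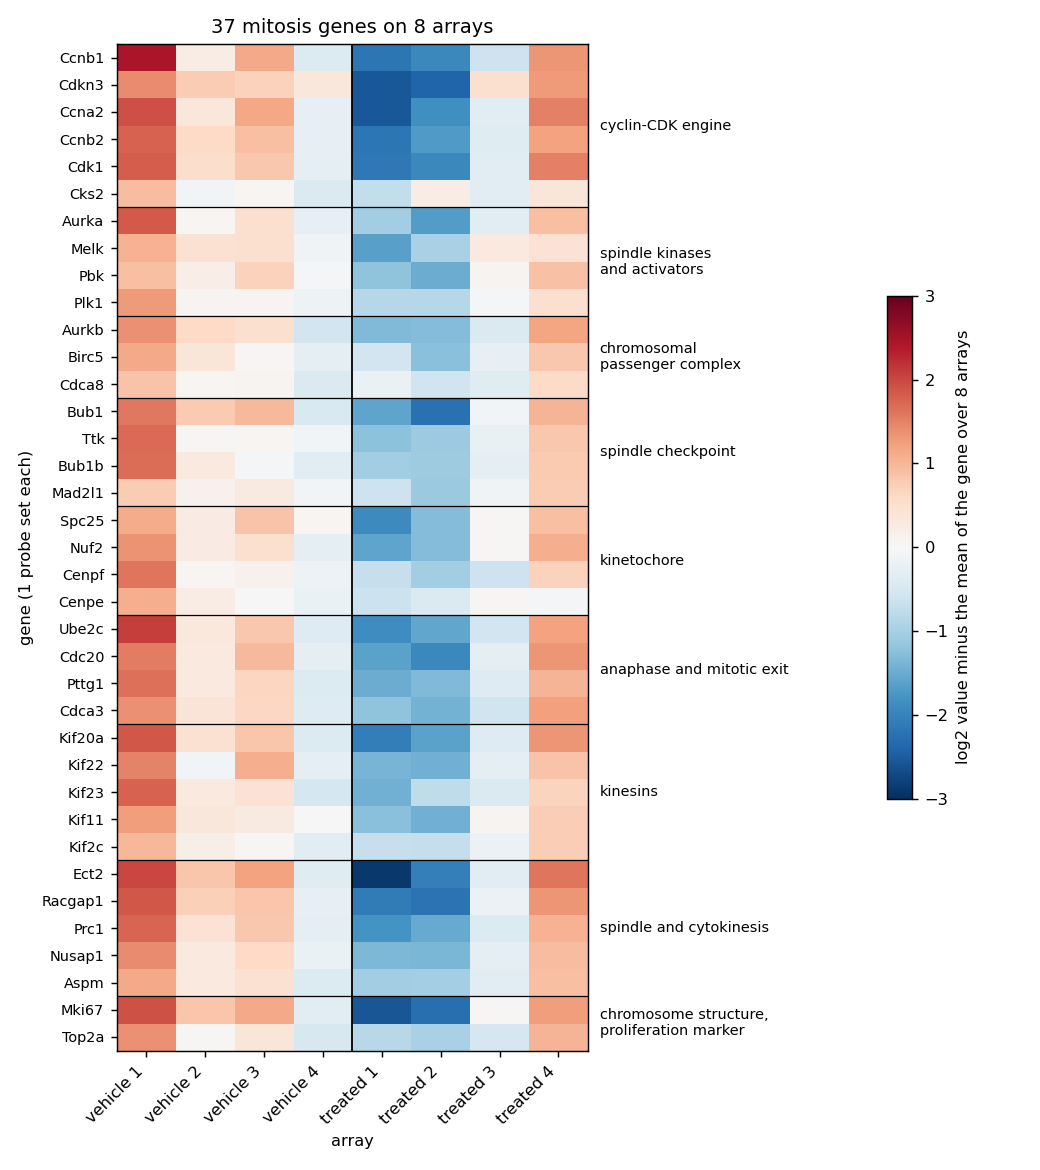
Colour gives the log2 value of each of 37 mitosis genes (rows, grouped by role) on each of 8 arrays (columns) minus the mean of that gene over the 8 arrays. Vehicle 1 and treated 4 stand above the mean and treated 1 and treated 2 below it at nearly every gene, and vehicle 4 and treated 3 lie close together.

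The spread within the groups followed one order of arrays that recurred from gene to gene. Vehicle 1 was the highest of the 8 arrays at 36 of the 37 genes, against 14.0% of all genes. Treated 4 was the second highest at 33 (background 13.8%), and it exceeded vehicle 2, vehicle 3 and vehicle 4 at 34 (background 23.5%). Treated 1 and treated 2 were the pair of lowest arrays at 35 (background 8.64%). Vehicle 1 and treated 4, in either order, were the pair of highest arrays and treated 1 and treated 2 the pair of lowest at 32 of the 37. This held at 1.65% of all genes. The median deviation from a gene's own mean was 1.49 on vehicle 1, 0.29 on vehicle 2, 0.60 on vehicle 3 and −0.29 on vehicle 4, and it was −1.39, −1.37, −0.30 and 0.93 on treated 1 to 4. Treated 1 and treated 2 were thus low and vehicle 1 high, while treated 3 lay close to vehicle 4 and treated 4 above most vehicle livers. Leaving out 1 of these 3 arrays gave a median difference of −0.70 without vehicle 1, −0.74 without treated 1 and −0.76 without treated 2. As the members shared this order, the 37 genes do not count as 37 separate observations.

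In size, this spread was well above that of most genes. The SD of a member over 4 livers had a median of 0.80 in vehicle and 1.11 in treated livers, against 0.22 and 0.24 over all genes. From the lowest to the highest liver the members spanned a median of 2.93 log2 units, or 7.61-fold, against 0.71 units for all genes. A span of at least 2 units was found at 32 of the 37 (background 6.51%). Ect2 spanned 29.6-fold, the widest of the members, and Cdca8 2.74-fold, the narrowest. Within the treated group the range exceeded the difference between groups at all 37 genes (background 96.4%), and within the vehicle group at 35 (background 95.3%). Both shares were near those of all genes, so these counts do not set the members apart.

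The members' promoters were searched for the pair of motifs by which late cell cycle genes are known to be switched. One is the cell cycle genes homology region (CHR), read here as TTTGAA, which binds the DREAM and MuvB complexes that repress these genes in resting cells and activate them before mitosis. The other is the CCAAT box of the activator NF-Y. RefSeq windows of the rat assembly GRCr8, from 250 bases before to 50 after a start, were matched for 36 of the 42 genes, not for Aurkb, Ccna2, Pbk, Racgap1, Tpx2 and Ube2c. With both strands searched, TTTGAA was present in 27 of the 36 windows (75%), against 18.1% of 27457 genes with a window. CCAAT was present in 27 (75%), against 37.7%, and both in 22 (61.1%), against 7.25%. TTTGAA was present in 52.9% of 70 windows of the further mitotic genes, in 10.8% of 37 of the DNA replication genes, in 27.8% of 36 of the mitotic machinery of resting cells and in 13.3% of 15 of the hepatocyte markers. CCAAT was also frequent in these lists, at 57.1%, 59.5%, 52.8% and 66.7% in the same order. The match nearest the start lay at a median of 16 bases before it for TTTGAA and 51 bases before it for CCAAT.

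The 160 bases before the start are shown for Cdk1, for Ect2 and Mki67, which had the largest differences, and for Cks2, which had the smallest. They are written 5′ to 3′ on the strand of the gene, with TTTGAA and CCAAT in capitals where they read on either strand, so that TTCAAA and ATTGG are the same motifs reversed. In Mki67 the second TTTGAA runs into a reversed CCAAT box (ATTGG), and their shared letter is part of both. A further TTTGAA of Ect2 crosses the start and is not in the stretch shown. The windows lie at chr20:19265133-19265292 (plus strand) for Cdk1, chr2:111966627-111966786 (minus) for Ect2, chr1:199952594-199952753 (minus) for Mki67 and chr17:13727520-13727679 (minus) for Cks2.
Cdk1: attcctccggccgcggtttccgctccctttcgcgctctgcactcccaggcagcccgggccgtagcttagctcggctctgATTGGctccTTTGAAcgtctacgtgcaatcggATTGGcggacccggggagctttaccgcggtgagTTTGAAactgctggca
Ect2: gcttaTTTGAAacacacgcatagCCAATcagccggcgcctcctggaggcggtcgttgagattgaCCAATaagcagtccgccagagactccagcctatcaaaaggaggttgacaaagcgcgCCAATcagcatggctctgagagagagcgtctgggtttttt
Mki67: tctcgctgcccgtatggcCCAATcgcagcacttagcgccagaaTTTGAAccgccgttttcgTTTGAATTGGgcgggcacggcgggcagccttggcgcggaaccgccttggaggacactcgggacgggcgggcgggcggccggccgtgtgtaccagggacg
Cks2: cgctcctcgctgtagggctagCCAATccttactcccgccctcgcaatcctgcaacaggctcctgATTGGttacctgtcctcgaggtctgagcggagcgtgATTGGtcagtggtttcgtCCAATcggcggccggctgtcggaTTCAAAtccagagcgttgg

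The shown windows hold 2 CHR matches and 2 CCAAT boxes in Cdk1, 1 and 3 in Ect2, 2 and 2 in Mki67, and 1 and 4 in Cks2. All windows shown hold both motifs, as do 22 of the 36 windows (61.1%). They include Cks2, at which treated 2 departed from the common order. Whether the motifs relate to the differences was not tested. Measured members with TTTGAA (23) had a median difference of −0.98 and those without it (9) of −0.995, and those with and without CCAAT (25 and 7) had −1.05 and −0.88. Of those without TTTGAA, Ccnb1, Aurka, Bub1 and Kif20a were over 2-fold lower, and Melk, Cenpe, Cdca3, Kif11 and Kif2c were not. A match describes these letters only and was not tested as a binding site. Only these exact letters were searched, so a window without a match is not shown to lack the element.

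**Figure D2:**
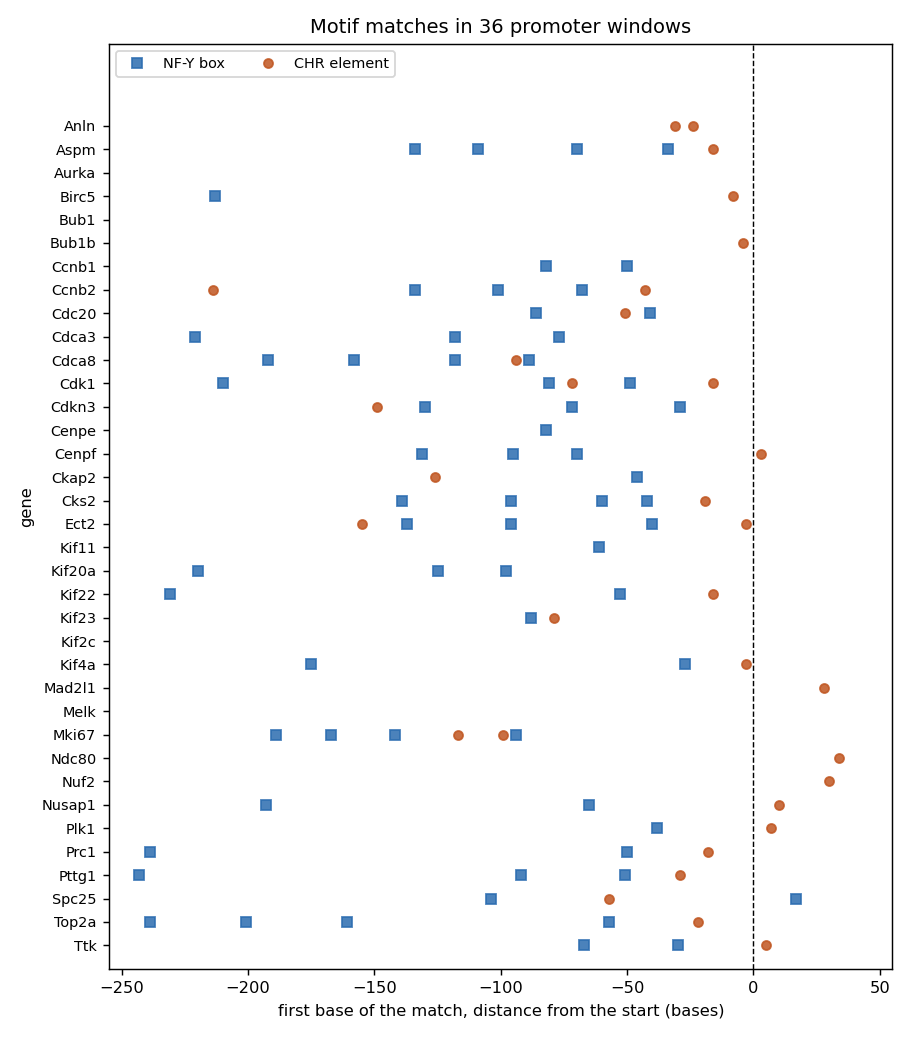
Each row is the promoter window of 1 of 36 mitosis genes. Points mark the first base of each match to TTTGAA (CHR, circles) and CCAAT (NF-Y box, squares) by its distance in bases from the start. TTTGAA matches cluster close to the start, with CCAAT matches mostly before them, and the windows of Aurka, Bub1, Kif2c and Melk hold neither match.

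Among the genes of the cyclin-CDK engine all 6 were lower on average in treated livers, with a median difference of −1.55, and 5 of them by at least 2-fold. Ccnb1 (1370346_at), the cyclin B1 that activates Cdk1 at mitotic entry, stood at 9.50, 7.28, 8.19 and 6.65 on vehicle 1 to 4, and on treated 1 to 4 at 4.89, 5.13, 6.43 and 8.38. Treated 1 to 3 lay below every vehicle liver and treated 4 above all but vehicle 1. The means were 7.91 ± 1.24 and 6.20 ± 1.60 (SD, n = 4 per group), a difference of −1.70 with a 95% interval from −3.58 to 0.18. Cdk1 (1367776_at), the kinase itself, stood at 8.89, 7.61, 7.89 and 6.79 in vehicle and 4.92, 5.15, 6.75 and 8.58 in treated livers, the same picture as Ccnb1. Its difference was −1.44 (−3.22 to 0.33). Cdkn3 (1372685_at), a phosphatase that acts on Cdk1, stood at 8.57, 7.90, 7.83 and 7.48 and at 4.60, 4.74, 7.62 and 8.42, so that treated 1 and treated 2 lay far outside a narrow vehicle range. Its difference was −1.60 (−3.48 to 0.27). Ccnb2 and Ccna2, the cyclins B2 and A2, differed by −1.51 and −1.60.

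Cks2 (1373823_at), a small subunit that binds cyclin-dependent kinases, departed from the other members. It stood at 9.65, 8.65, 8.79 and 8.30 in vehicle and 7.97, 8.94, 8.38 and 9.09 in treated livers. Treated 2, which was among the lowest pair of livers at the 36 other members, was here the third highest of the 8. The means were 8.85 ± 0.57 and 8.60 ± 0.52, and the difference of −0.25 (−0.99 to 0.49) was the smallest of the members. It became 0.016 without vehicle 1.

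**Figure D3:**
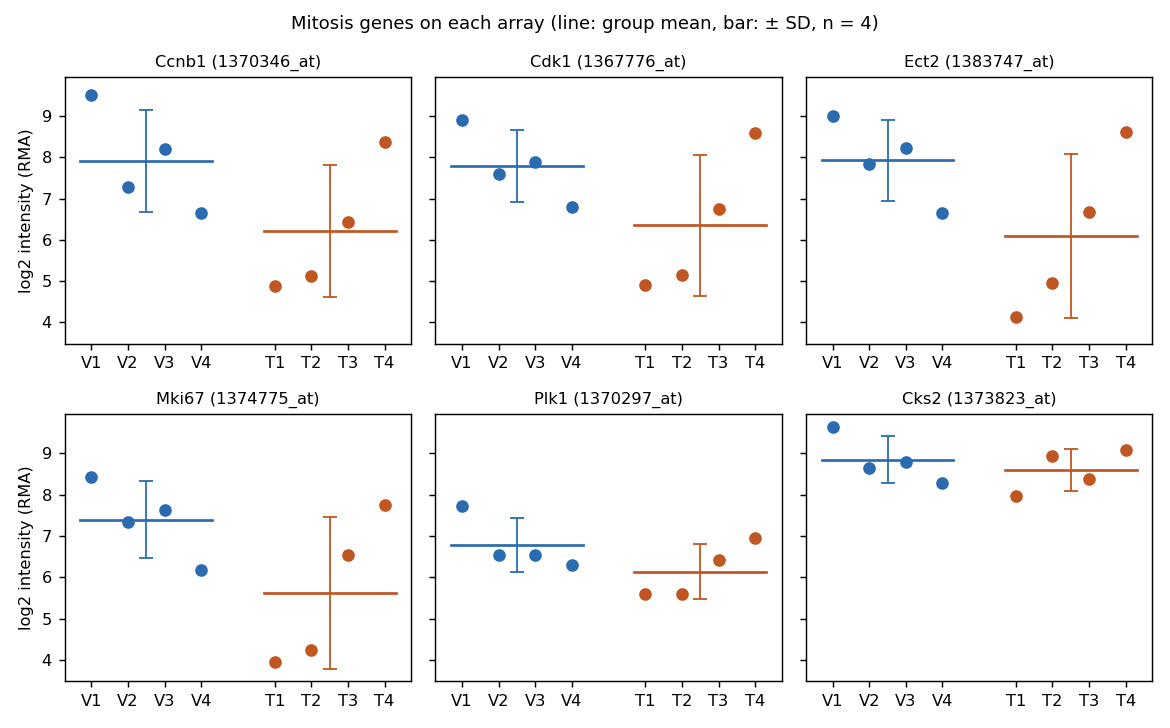
Points are log2 intensities of 6 mitosis genes on the 4 vehicle (V1 to V4) and 4 treated (T1 to T4) arrays, lines are group means and bars are ± SD. T4 lies second to V1 in every panel. T1 and T2 lie lowest in each panel except that of Cks2, where T1 is lowest but T2 is not low.

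In the group of spindle kinases and other mitotic kinases 4 genes were measured, and all averaged lower, with a median difference of −0.90. Aurka (1376039_at), the Aurora kinase of the spindle poles, stood at 8.84, 7.06, 7.48 and 6.75 in vehicle and 5.94, 5.33, 6.65 and 7.89 in treated livers. Its group means were 7.53 ± 0.92 and 6.45 ± 1.10, a difference of −1.08 (−2.42 to 0.26). Plk1 (1370297_at), the polo-like kinase of mitotic entry and spindle assembly, stood at 7.74, 6.55, 6.53 and 6.31 and at 5.59, 5.61, 6.41 and 6.95. Here vehicle 1 stood apart from the other vehicle livers, and the difference of −0.64 was −0.32 without it. Melk and Pbk, mitotic protein kinases, differed by −0.93 and −0.86.

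The chromosomal passenger complex corrects faulty attachments of chromosomes and later guides cytokinesis. Its 3 members averaged lower, none by 2-fold. Aurkb (1368260_at), its Aurora kinase, stood at 7.18, 6.41, 6.30 and 5.25 in vehicle and 4.50, 4.53, 5.39 and 6.99 in treated livers, with a difference of −0.93 (−2.25 to 0.39). Cdca8 (1371928_at), the subunit borealin, stood at 6.76, 5.97, 5.999 and 5.48 and at 5.71, 5.31, 5.56 and 6.49. Its treated livers lay almost wholly within the vehicle range, and its difference was −0.29 (−0.99 to 0.42), or −0.05 without vehicle 1. Birc5, the subunit survivin, differed by −0.64.

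Spindle checkpoint genes averaged lower at 4 of 4, with a median of −0.83. Bub1 (1385086_at), a checkpoint kinase at kinetochores, stood at 7.42, 6.63, 6.82 and 5.38 in vehicle and 4.27, 3.61, 5.75 and 6.87 in treated livers, differing by −1.44 (−3.03 to 0.15). On treated 2 its signal was dim, that is, at or below the 25th percentile of probe sets of the array. Mad2l1 (1398602_at), which holds back the activator Cdc20, stood at 6.71, 6.09, 6.21 and 5.87 and at 5.34, 4.85, 5.84 and 6.72. It was the 1 member at which treated 4, and not vehicle 1, was highest, if barely, and its difference was −0.53 (−1.37 to 0.30). Bub1b (BubR1) and Ttk (the kinase Mps1) differed by −0.79 and −0.86.

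Kinetochore genes averaged lower at 4 of 4, with a median of −0.85. Nuf2 (1383940_at), a subunit of the complex that grips microtubules, stood at 8.32, 7.22, 7.46 and 6.69 in vehicle and 5.41, 5.68, 7.03 and 8.07 in treated livers, differing by −0.88 (−2.20 to 0.44). Spc25 (1389668_at), of the same complex, stood at 7.52, 6.65, 7.26 and 6.45 and at 4.48, 5.11, 6.44 and 7.31, a difference of −1.14 (−2.42 to 0.14). Both had treated 1 lowest, treated 2 next and treated 4 near vehicle 1. Cenpf and the kinetochore motor Cenpe differed by −0.83 and −0.55. At Cenpe treated 4, at 4.50, did not exceed vehicle 2 and vehicle 3, unlike at most members.

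Genes of anaphase and mitotic exit averaged lower at 4 of 4, and 3 of them by at least 2-fold, with a median of −1.17. Pttg1 (1367780_at), the separase inhibitor securin, stood at 8.69, 7.33, 7.67 and 6.63 in vehicle and 5.54, 5.70, 6.66 and 8.06 in treated livers, differing by −1.09 (−2.43 to 0.26). Cdca3 (1374449_at), which promotes mitotic entry through degradation of the kinase Wee1, stood at 8.55, 7.57, 7.80 and 6.79 and at 5.98, 5.77, 6.58 and 8.41, a difference of −0.995 (−2.31 to 0.31). At both, treated 4 came second only to vehicle 1. Ube2c, the ubiquitin-conjugating enzyme of the anaphase-promoting complex, and Cdc20, its activator, differed by −1.40 and −1.25.

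Mitotic kinesins, motors that slide and shorten spindle microtubules, averaged lower at 5 of 5, with a median of −0.98. Kif20a (1373722_at), needed for cytokinesis, stood at 8.33, 6.92, 7.30 and 6.04 in vehicle and 4.39, 4.87, 6.06 and 7.78 in treated livers, differing by −1.37 (−3.03 to 0.29). Kif22 (1372516_at), a chromosome-bound kinesin, stood at 7.87, 6.31, 7.46 and 6.12 and at 4.99, 4.94, 6.12 and 7.24, a difference of −1.12 (−2.41 to 0.18). Kif2c (1374912_at), which depolymerizes microtubules, stood at 5.98, 5.16, 5.02 and 4.65 and at 4.29, 4.29, 4.81 and 5.73. The order of its arrays was that of the other members on a smaller scale, with a difference of −0.43 (−1.26 to 0.41). Its other probe set (1369380_at) did not follow this order, with treated 1 second highest at 4.51, and differed by −0.15. Kif11, which pushes the spindle poles apart, and Kif23, of the central spindle, differed by −0.94 and −0.98.

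Spindle and cytokinesis genes averaged lower at 5 of 5, and 4 of them by at least 2-fold, with a median of −1.34. Ect2 (1383747_at), the exchange factor that activates RhoA at the division plane, stood at 9.01, 7.84, 8.22 and 6.66 in vehicle and 4.13, 4.95, 6.67 and 8.61 in treated livers. Its means were 7.93 ± 0.98 and 6.09 ± 1.99, and its difference of −1.84 (−3.90 to 0.22) was the largest of the members, although treated 4 exceeded all vehicle livers but vehicle 1. Prc1 (1392899_at), which bundles microtubules of the central spindle, stood at 8.98, 7.65, 8.03 and 6.93 and at 5.44, 5.72, 6.81 and 8.26, a difference of −1.34 (−2.78 to 0.10). Racgap1, the partner of Kif23 in the complex that recruits Ect2, differed by −1.58, and Nusap1 and Aspm, spindle proteins, by −1.05 and −0.74.

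Mki67 (1374775_at), which encodes the Ki-67 antigen used to count dividing cells in tissue, stood at 8.43, 7.33, 7.63 and 6.18 in vehicle and 3.94, 4.24, 6.55 and 7.76 in treated livers. Treated 1 and treated 2 lay more than 1 unit below every vehicle liver, treated 3 lay above vehicle 4, and treated 4 above vehicle 2 and vehicle 3. The means were 7.39 ± 0.93 and 5.62 ± 1.84, a difference of −1.77 (−3.69 to 0.15). Top2a (1372186_a_at), the topoisomerase that untangles chromosomes, stood at 8.36, 7.01, 7.35 and 6.50 and at 6.15, 6.01, 6.49 and 8.01, a difference of −0.64 (−1.78 to 0.50). Its second probe set (1388650_at), which differed by −1.40, placed treated 1 and treated 2 lower, at 4.86 and 5.11.

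Of the 37 genes, 10 had more than 1 probe set, which gives 14 further probe sets. The difference was below 0 at 13 of these and ran from −1.48 for the second probe set of Ccnb1 to 0.03 for one of Cdc20. Vehicle 1 was the highest array at 9 of the 14. At 4 of the 14, of Cdc20 and Ttk, the signal was dim on at least 4 arrays, and their differences ran from −0.40 to 0.03. Differences were also small at the further probe sets of Kif23 (−0.12) and Kif2c (−0.15), which were dim on 0 arrays. With all probe sets of a gene averaged, Cdc20 differed by −0.45, Ttk by −0.52 and Kif23 by −0.55 in place of −1.25, −0.86 and −0.98. The differences of Ccnb1 (−1.59), Racgap1 (−1.18), Kif11 (−0.77), Mad2l1 (−0.39) and Kif2c (−0.29) also became smaller in size. Those of Nusap1 (−1.07) and Top2a (−1.02) became larger. Among the probe sets that stand for the 37 genes, 10 were above the array's median on all 8 arrays, and 4, of Ccna2, Melk, Bub1 and Kif23, were dim on 1 array.

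**Figure D4:**
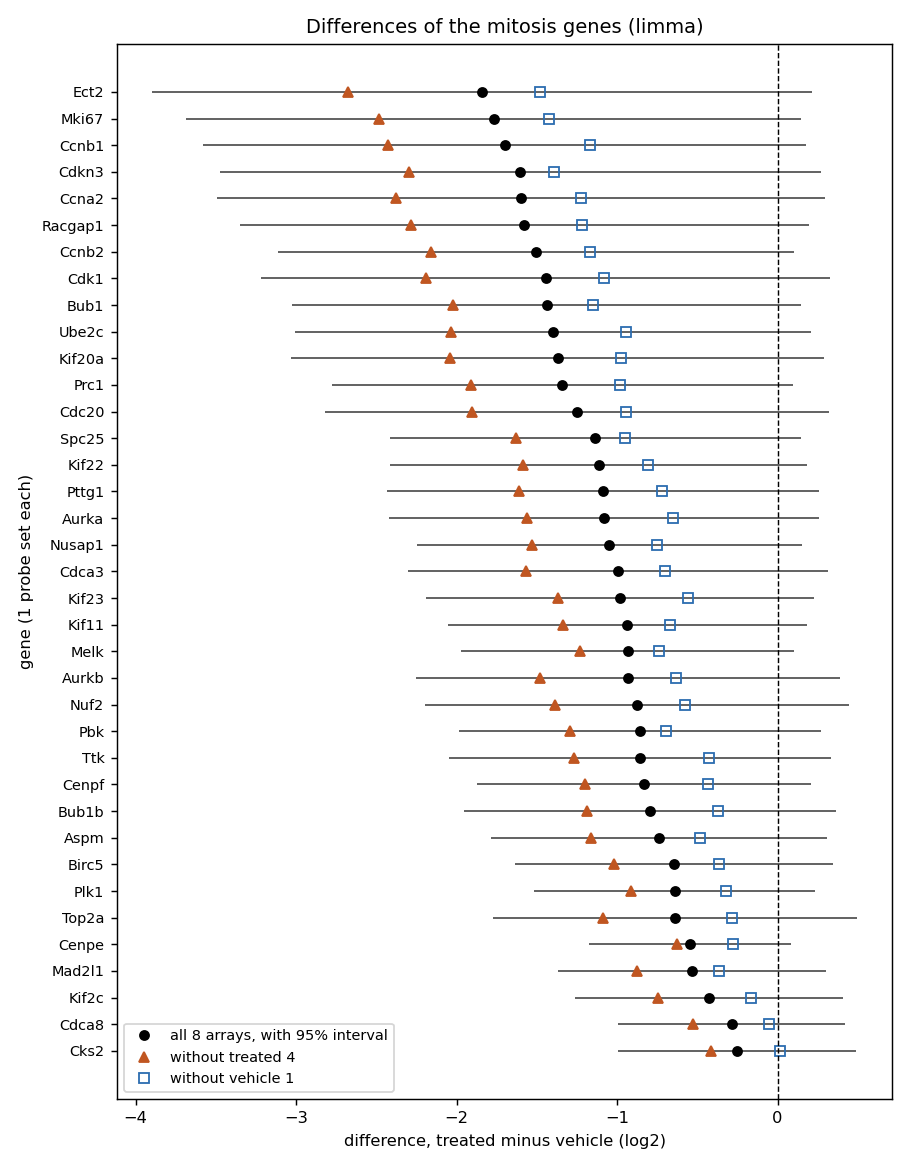
Circles are limma differences, treated minus vehicle, on the log2 scale for 37 genes with 95% intervals as lines, triangles the differences without treated 4, and open squares those without vehicle 1. All circles lie below 0 and all intervals include 0. The differences without treated 4 are larger at every gene, as they had to be, since treated 4 lies above each treated mean.

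Single livers moved these values. Without treated 4 the median difference was −1.53, and 34 of the 37 genes had an unadjusted p under 0.05 (background 8.07% of genes lower), but 0 passed the adjusted threshold (background 0.0%; smallest adjusted p = 0.515 by limma). Treated 4 lay above the treated mean at every member, so leaving it out had to enlarge the differences. No label sets treated 4 apart from the other treated livers. Without vehicle 1, 36 members, all but Cks2, averaged lower (background 49.5%), and 0 had an unadjusted p under 0.05 (background 1.46%). Such a p was also found at 0 members without treated 1 (background 1.31%), treated 2 (1.84%), vehicle 2 (1.91%) or vehicle 3 (1.4%). Leaving out treated 3 gave 2 (background 2.62%). Without vehicle 4 the median was −1.29, and 9 members had an unadjusted p under 0.05 (background 6.75%) and 0 passed (background 0.0633%; smallest adjusted p = 0.594 by limma).

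Within the spike-in groups the difference took different sizes. In the first, treated 1 minus vehicle 1 had a median over the members of −2.89, from −4.89 for Ect2 to −1.05. In the third, treated 3 minus vehicle 4, the nearly identical arrays, had a median of 0.02, from −0.49 to 0.41. In the second, treated 2 lay below the mean of vehicle 2 and vehicle 3 by a median difference of −1.83, and treated 4 above it by 0.56. Averaged, this second group gave −0.67. With the spike-in group as a block 0 members passed (smallest adjusted p = 0.895 by limma). Each spike-in group held as many treated as vehicle arrays, so this block could not change the differences.

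Other genes of the cell cycle were read from lists that hold none of the members. For comparison, of all genes 48.4% averaged lower, 1.32% by at least 2-fold and 2.8% at an unadjusted p under 0.05. Of 70 further mitotic genes whose transcription follows the cell cycle, 63 averaged lower in treated livers, with a median of −0.39, 11 by at least 2-fold, and 3 had an unadjusted p under 0.05, a share near that of all genes. Among these 3, Cdc25b, a phosphatase that activates Cdk1, differed by −0.63 and Cenpq, of the inner kinetochore, by −0.64 (limma adjusted p = 0.979 for both). The mean level of this list was 6.42, 5.77, 5.93 and 5.65 in vehicle 1 to 4, then 5.03, 5.06, 5.64 and 6.13 in treated 1 to 4, close to the array order of the members. Signal was dim on at least 4 arrays at 8 of the 70, and at 2 genes each of the DNA replication and G1 lists. Of 39 DNA replication genes 36 averaged lower, with a median of −0.20, 0 by 2-fold and 0 at an unadjusted p under 0.05. Their list mean was lowest on treated 1 and treated 2, at 6.27 and 6.18, and highest on treated 4, at 7.02. Pcna, the sliding clamp of DNA polymerases, differed by −0.32.

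Upstream of the cell cycle, 21 of 26 G1 cyclins and inhibitors of cyclin-dependent kinases averaged lower, with a median of −0.13, and 2 had an unadjusted p under 0.05. Ccnd1, the cyclin D1 that links growth signals to the cell cycle, stood at 10.22, 10.31, 9.72 and 9.64 in vehicle and 7.50, 7.99, 9.49 and 9.97 in treated livers. As at the mitotic genes, treated 1 and treated 2 were far below all others, but vehicle 1 and treated 4 did not stand above the rest. Its difference was −1.23, and that of Ccnd2, cyclin D2, −0.76 (limma adjusted p = 0.979 for both). Mitotic proteins that resting cells also make, such as subunits of the anaphase-promoting complex, cohesin and the GTPase Ran, averaged lower at 29 of 41 with a median of −0.07 and 0 at an unadjusted p under 0.05. Across all 4 lists 0 genes passed the adjusted threshold.

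**Figure D5:**
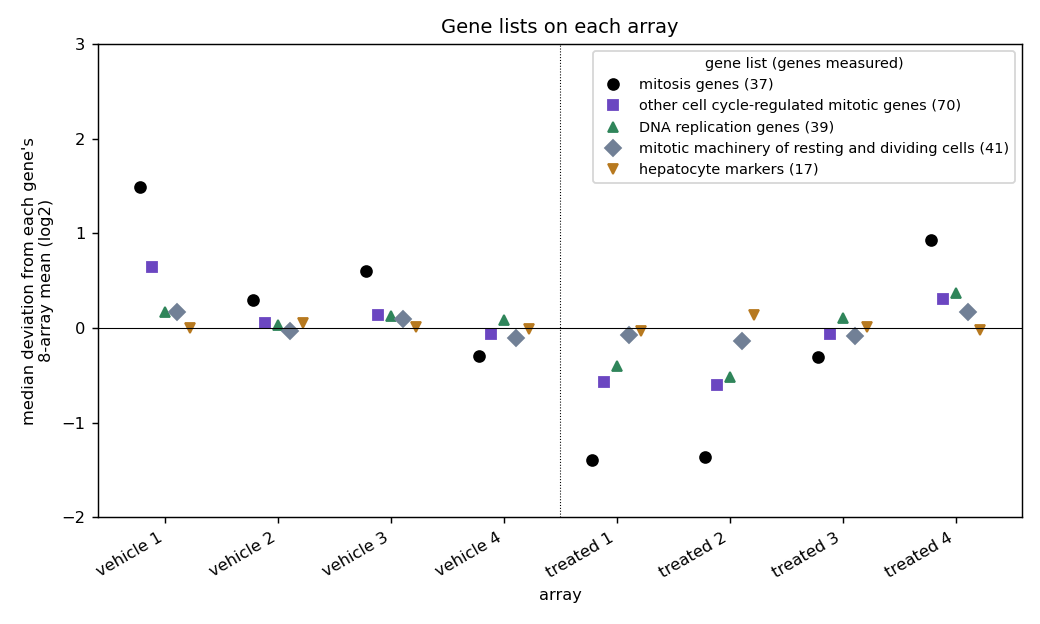
Points are medians, over the genes of a list, of the log2 value on an array minus the gene's mean over 8 arrays, for the mitosis genes and 4 other lists. The mitosis genes span from −1.39 on treated 1 to 1.49 on vehicle 1, the further mitotic genes follow in nearly the same order at a smaller scale, and hepatocyte markers stay near 0.

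Markers of the cell types in these livers shared the array order of the mitotic genes in part. Unadjusted p-values under 0.05 are counted for each list, and 0 markers passed the adjusted threshold. For comparison, 48.4% of all genes averaged lower, and by limma 2.8% had such a p downward and 1.95% upward. Hepatocyte markers averaged lower at 9 of 17 with a median of −0.01. The 1 with such a p, the apolipoprotein Apoa2, was higher by 0.92 (limma adjusted p = 0.979), and their mean level lay between 12.94 and 13.38 in vehicle and between 13.14 and 13.57 in treated livers. Stellate cell and myofibroblast markers averaged lower at 15 of 17, 4 of them with such a p, with a median of −0.67 and list means of 7.67 to 8.63 in vehicle and 7.25 to 8.22 in treated livers. As at the mitotic genes, treated 1 and treated 2 were lowest, at 7.31 and 7.25, and treated 4 was the highest treated liver, at 8.22. Bile duct markers averaged lower at 9 of 11, 1 with such a p, with a median of −0.34, and their list mean ran from 5.94 to 6.79 in vehicle and from 5.70 on treated 2 to 7.01 on treated 4. Macrophage markers averaged lower at 12 of 14, 0 with such a p, with a median of −0.62, from 8.38 to 9.18 in vehicle and from 7.55 on treated 1 to 8.90 on treated 4, with treated 2 at 8.78 and so not low. No marker of these 4 lists was dim on 4 or more arrays.

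Vascular endothelial markers averaged lower at 15 of 15 (background 48.4%), 6 of them at an unadjusted p under 0.05 (background 2.8%), with a median of −0.54. All treated livers, at 6.38 to 6.57, lay close together, as did vehicle 4 at 6.51, against 7.20 to 7.26 on vehicle 1 to 3. The separation of treated 4 from treated 1 and treated 2, seen at the mitotic genes, was thus not seen there. T and natural killer cell markers averaged lower at 15 of 18, 3 with such a p, with a median of −0.18, from 4.55 to 4.86 in vehicle and from 4.36 to 4.66 in treated livers, with 5 of them (Cd5, Ncr1, Klrd1, Gzmb and Gzma) dim on at least 4 arrays. B and plasma cell markers averaged lower at 6 of 11, 2 with such a p, with a median of −0.03, from 5.03 to 5.39 and from 4.90 to 5.10, with Ms4a1, Cr2, Fcer2 and Pou2af1 dim. Blood cell genes averaged lower at 4 of 5, 2 with such a p, with a median of −0.13, from 5.55 to 6.29 and from 5.41 to 5.62. These 2 were the globin Hbb, at −1.802, and the heme synthesis gene Alas2, at −0.61 (limma adjusted p = 0.979 for both). The part of these cell types in the mitotic values was not tested.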

How the data were processed

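RNA of frozen liver was labelled as biotinylated cRNA from an oligo(dT) primer and hybridized to Rat2302 arrays, per the labels' protocols. The authors deposited log2 intensities per probe set, made with affy and RMA per the submitters' processing notes. RMA corrects background, equalises the distribution of the arrays and summarises probes, and tends to understate differences at low signal. Versions were not given in the sources used here. The values were used as deposited (31099 probe sets, of which 31042 are no controls). Precision is limited by the 4 arrays per group.

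Arrays were grouped by title. Limma (3.58.1, R 4.3.3; lmFit and eBayes, no covariates) compared treated with vehicle over all probe sets, with Benjamini-Hochberg adjustment, after a test on simulated data. Whether the arrays come from separate animals rests on the labels. The platform annotation gave 1 symbol to 20826 probe sets. The 25th percentile of an array, at log2 3.74 to 3.91, marked dim signal.

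Values on every array are given for the 2 members with the highest mean in each of 9 role groups, and for the 3 largest and 3 smallest differences. Cdk1 and the genes named without array values were added. Of other lists, the genes with the highest mean or an unadjusted p under 0.05 could be named. The members, lists and alternatives were chosen with earlier results of these data known. Spike-in groups were read from BioB and BioC. Alternatives were another normalization, a filter on dim probe sets, other variance settings, blocks, averaged probe sets and leaving out arrays.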

Additional observations from a re-analysis of the deposited data

Results flagged for a closer look

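Vehicle 1 stood apart from the other vehicle livers at 3 mitosis genes, its gap to the nearest liver taking a larger share of the group's range than Dixon's 95% critical value. This share was 0.919 for Ttk, where vehicle 1 was at 6.84 and the others between 5.05 and 5.20. It was 0.845 for Cenpf, with vehicle 1 at 7.33, and 0.832 for Plk1, with vehicle 1 at 7.74. In all 76 such checks were made, of which chance marks about 1 in 20, and the genes share their arrays. Without vehicle 1 the differences were −0.43 for Ttk, −0.43 for Cenpf and −0.32 for Plk1.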

How the results depend on the processing

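All 37 members stayed lower in treated livers and uncalled by limma under quantile normalization (median −0.95), median centring (−0.94), eBayes with trend and robust settings, and averaged probe sets. With the replicate number as a block 0 members passed (smallest adjusted p = 0.9999 by limma). Each number has 1 array per group, so this block could not change the differences, and the median stayed −0.995. The numbers are not known to pair animals, and the deviations of same-numbered arrays correlated at −0.11, 0.04, −0.12 and −0.62 across probe sets. Only probe sets with a mean above 6 gave 23 members, all 23 lower (median −1.25). Leaving out 1 array gave medians from −1.53 (without treated 4) to −0.70 (without vehicle 1), 36 or 37 members lower and 0 called. Cks2 ran from −0.44 (without vehicle 4) to 0.016 (without vehicle 1), the reversed value. Over all probe sets, 0 passed with all arrays (1220 at an unadjusted p under 0.05), 3 without both nearly identical arrays, and between 0 and 11 without 1 array, the 11 without vehicle 4, with no member among them. Of 578 member values under the alternatives, 577 kept their direction and 0 passed. Many of these could not change direction, since the blocks, the variance settings and the filter leave a probe set's difference as it was. Averaging likewise leaves the difference of a gene with 1 probe set unchanged. Signal was dim on 1 array at 4 members, and the size of difference that 4 arrays per group can resolve was not tested.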
